A study of Mus musculus with 12 samples.

Results

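The genes described here carry out mitochondrial fatty acid oxidation in the colon epithelium or are established targets of the nuclear receptor PPAR alpha. The list of 33 genes was set by function. It runs from the receptor gene and fatty acid uptake through the carnitine shuttle and the beta-oxidation spiral to ketone body handling. No measured value was a criterion, but the list was drawn up with earlier results of these data known. Of the 33 genes, 32 were named on the array, among 12393 named genes in all. Acsl1, the remaining gene, had no probe set with its symbol alone and is not analysed here. Each gene was read from its brightest probe set, the one of the highest mean over the 12 arrays.

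The study asked how the colon responds to quercetin, a plant flavonol, in wild type and in POR-null mice. POR is cytochrome P450 reductase, the electron donor of microsomal P450 enzymes. Male wild type C57BL/6 and POR-null mice, aged 6 to 8 weeks, were all kept for 14 days on the soya-free RM3 (E) powdered diet. For the last 24 h they received either that diet (control) or the same diet with quercetin at 6200 ppm, stated as 7 mg per mouse. RNA of the scraped epithelial layer from 3 mice went onto each Affymetrix 430A array as a pool. With 3 arrays a group, a group stood for 9 mice. The 4 groups were wild type control, wild type quercetin, POR-null control and POR-null quercetin. The labels name no promoter or cell type for the deletion. Mice that lack the gene everywhere are known to die as embryos, so viable null lines carry a deletion limited to some cells. The labels do not say whether the colon epithelium is among them. A replicate is a pool, and every p below measures the spread between pools.

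Fatty acids enter a cell with the help of membrane proteins such as CD36 and the fatty acid transport proteins, are bound to coenzyme A, and cross the mitochondrial membranes as carnitine esters. In the matrix, acyl-CoA dehydrogenases, hydratases, hydroxyacyl-CoA dehydrogenases and thiolases shorten the chain in repeated rounds, and electron transfer flavoprotein passes the electrons of the first step to the respiratory chain. PPAR alpha, activated by fatty acids, raises transcription of many of these genes in liver and gut, while colonocytes are known to take much of their energy from oxidizing short-chain fatty acids made by gut bacteria.

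The deposited values, taken to be log2 signal, ran from 2.7 to 14.09, array medians from 5.90 to 5.98 and array lower quartiles from 4.66 to 4.78. Of 15 listed colonocyte markers 14 were named, and their mean lay between 10.86 and 11.15 in every array, while the goblet cell list lay between 12 and 12.41. Lists for cells outside the epithelium differed between arrays and groups. The smooth muscle list (13 genes) stood at 5.90 to 6.17 in the wild type control arrays and at 6.32 to 9.51, 6.19 to 7.75 and 7.26 to 7.69 in the wild type quercetin, POR-null control and POR-null quercetin arrays. Wild type control arrays 2 and 3 stood apart from the other 10 on the first principal component, at 24.7 and 24.9 with array 1 of that group at -3.1. POR-null control array 1 stood at -24.2, and the remaining arrays lay between -11 and 9.9. Differences from the wild type control group are therefore set beside their values without wild type control arrays 2 and 3. That leaves array 1 as the group's only one, taken to vary like the other groups. Array 1 had the group's highest means of a pancreatic acinar list (9.03) and a small intestine list (8.85). Which of the 3 pools was typical was not tested. In such bulk RNA, fewer cells of a type and less RNA per cell cannot be told apart.

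No gene of the 32 passed the test in any comparison of diet or genotype, and the 3 wild type control arrays differed among themselves over most of the list. On the log2 scale the mean over the 32 genes was 8.32, 8.71 and 8.52 in wild type control arrays 1 to 3. It was 8.39, 8.35 and 8.40 in wild type quercetin, 8.37, 8.33 and 8.26 in POR-null control, and 8.39, 8.45 and 8.22 in POR-null quercetin. Wild type control arrays 2 and 3 thus stood above all others, and array 1 of the same group stood among the treated and null arrays. In wild type control array 2, 29 of the 32 genes (90.6%) lay above their own mean over the 12 arrays, against 43.6% of all named genes, and the median deviation over the 32 genes was 0.26. In array 3 the count was 25 of 32 (78.1%, all genes 54.3%), and in array 1 it was 8 of 32 (25%, all genes 49.7%). Array 2 held the highest value of the 12 for 19 of the 32 genes, a place it took for 8.55% of all genes. The lowest values were spread more widely: POR-null quercetin array 3 held 9 of them (5.97% of all genes had theirs there) and POR-null control array 3 held 7 (7.50%).

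**Figure D1:**
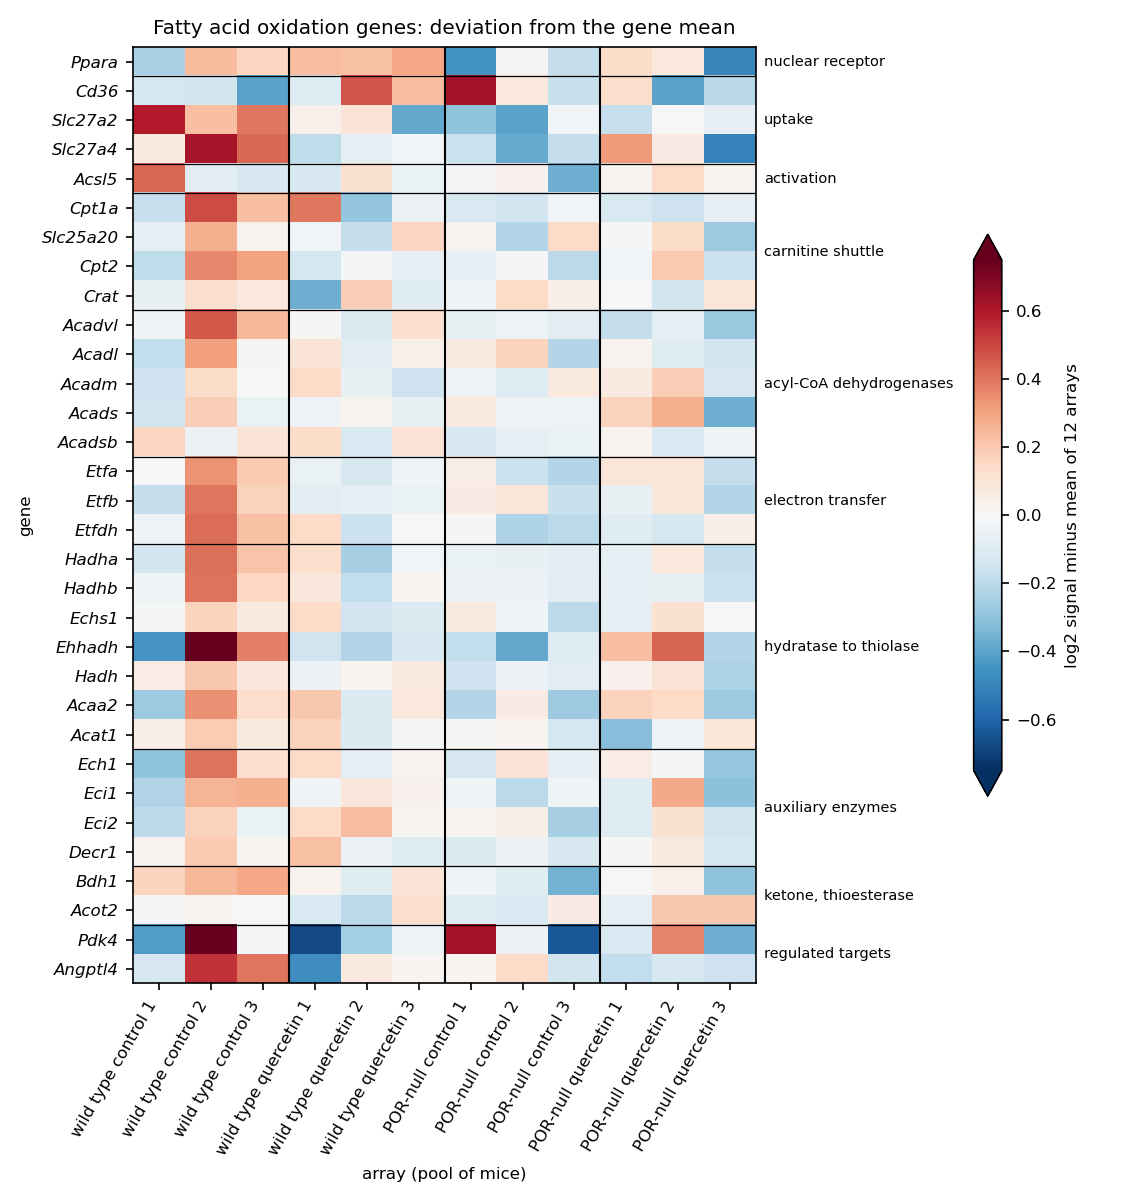
Log2 signal of each of the 32 fatty acid oxidation and PPAR alpha target genes in each of the 12 arrays, as the deviation from that gene's mean over the 12 arrays, with genes in the order of their roles and colours clipped at 0.75 either way. The column of wild type control array 2 lies above the mean in 29 of 32 genes, that of array 3 in 25 and that of array 1 in 8.

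Within wild type control the pools therefore disagreed more over oxidation genes than the other groups did. The median SD over 3 arrays was 0.23 for the 32 genes and 0.11 for all named genes in wild type control. It was 0.14 and 0.12 in wild type quercetin, 0.13 and 0.13 in POR-null control, and 0.16 and 0.11 in POR-null quercetin. Several cell type lists also differed between the wild type control arrays, not all in the same way. In arrays 1 to 3 of that group the B and plasma cell list stood at 7.08, 5.75 and 5.69. The fibroblast list stood at 6.61, 5.85 and 5.32 there. The myeloid and MHC class II list (12 genes) stood at 7.22, 6.30 and 6.14 in wild type control arrays 1 to 3, the last 2 values being below those of the other 10 arrays (6.73 to 7.71). The smooth muscle list was at its lowest in the same 3 arrays, at 6.17, 5.98 and 5.90. A list of small intestine markers (11 genes) stood at 8.85, 7.88 and 8.28 in wild type control, 6.98, 8.52 and 8.14 in wild type quercetin, 7.85, 7.50 and 7.62 in POR-null control, and 8.20, 8.32 and 7.57 in POR-null quercetin. A pancreatic acinar list was high in wild type control arrays 1 and 2, at 9.03 and 7.46, and in POR-null quercetin array 2, at 9.92, against 6.14 to 7.21 in the other 9. The part of these lists in the oxidation genes was not tested on its own. The fits with covariates given below hold only the smooth muscle and myeloid means, and none holds the small intestine or acinar mean. In the other arrays the smooth muscle mean ran from 6.19 to 9.51, above all 3 wild type control arrays. A fit with this covariate therefore cannot separate its part from that of the wild type control group.

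**Figure D2:**
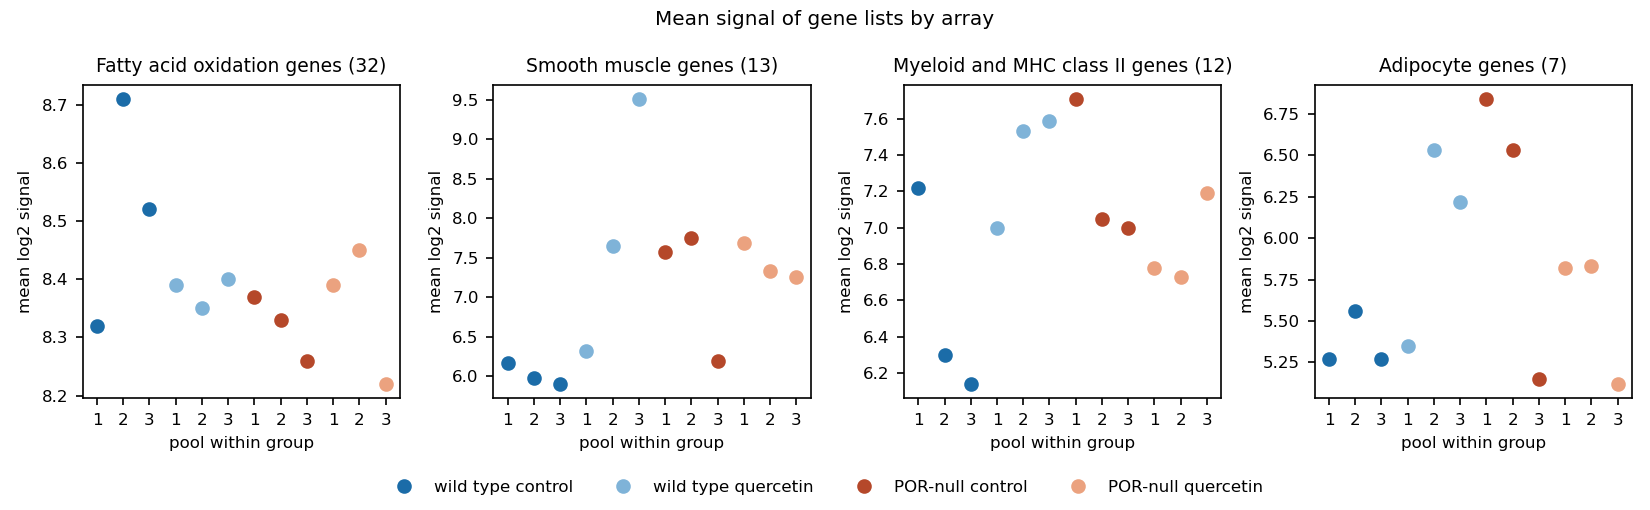
Mean log2 signal per array of the 32 oxidation and PPAR alpha target genes, of 13 smooth muscle genes, of 12 myeloid and MHC class II genes and of 7 adipocyte genes, one point per array by group. The oxidation mean is highest in wild type control arrays 2 and 3 (8.71 and 8.52), the arrays in which the myeloid mean is lowest (6.30 and 6.14).

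Ppara encodes PPAR alpha itself. Its log2 signal was 5.79, 6.27 and 6.19 in wild type control, 6.26, 6.25 and 6.32 in wild type quercetin, 5.58, 6.04 and 5.85 in POR-null control, and 6.17, 6.11 and 5.54 in POR-null quercetin. All 3 wild type quercetin arrays lay above all 3 POR-null quercetin arrays, whereas on the control diet the genotypes overlapped. The POR-null minus wild type difference was -0.34 on quercetin (SE 0.18, limma adjusted p = 0.998) and -0.26 on control diet (SE 0.18, adjusted p = 0.795), and neither passed the test. Without POR-null quercetin array 3 the first of these was -0.14, and with the smooth muscle and myeloid list means as covariates it was -0.56.

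Among the uptake genes, Slc27a2 stood higher in wild type control than in the other 3 groups. It encodes the very long-chain acyl-CoA synthetase known as fatty acid transport protein 2. Its values were 6.51, 6.14 and 6.31 in wild type control, 5.95, 6.01 and 5.53 in wild type quercetin, 5.61, 5.51 and 5.89 in POR-null control, and 5.74, 5.91 and 5.85 in POR-null quercetin. All 3 wild type control arrays lay above the other 9. Only Slc27a2 and Bdh1 among the 32 genes had that arrangement, which 0.468% of all probe sets tested had. Group means were 6.32 ± 0.19, 5.83 ± 0.26, 5.67 ± 0.20 and 5.83 ± 0.09 (SD, n = 3) in the order above. The difference was -0.49 for quercetin in wild type (SE 0.15, 95% interval -0.80 to -0.18, limma adjusted p = 0.948) and -0.65 for genotype on the control diet (SE 0.15, interval -0.96 to -0.34, adjusted p = 0.710). Neither passed the threshold of 0.05 over all probe sets. With array weights, which count arrays less the farther they lie from their group means, the genotype difference was -0.72 with a limma adjusted p of 0.027. That fit passed 399 of all 22626 probe sets. With the covariates the quercetin difference was -0.32.

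Slc27a4 encodes fatty acid transport protein 4, the main member of its family in intestinal epithelium. It read 9.45, 10 and 9.81 in wild type control, 9.19, 9.31 and 9.36 in wild type quercetin, 9.22, 9.00 and 9.20 in POR-null control, and 9.70, 9.44 and 8.87 in POR-null quercetin. Wild type control lay above wild type quercetin and above POR-null control with no overlap, while POR-null quercetin spanned most of that range. The difference was -0.47 for quercetin in wild type (SE 0.18, adjusted p = 0.954) and -0.61 for genotype on the control diet (SE 0.18, interval -1.01 to -0.22, adjusted p = 0.710). Array weights again brought the latter past the threshold, at -0.76 with an adjusted p of 0.0384. The size rested on wild type control arrays 2 and 3: without them the 2 differences were -0.16 and -0.31, whereas for Slc27a2 the genotype difference without them was -0.84.

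Promoter windows of the uptake genes are shown because Slc27a2 and Slc27a4 had the largest genotype differences on the control diet. They reach from 250 bases before to 50 after the gene start in RefSeq on GRCm38.p6, and capitals mark AGGTCA on either strand, the core of the element that PPAR alpha and its partner RXR bind as a direct repeat. The Slc27a2 window lies on the plus strand at chr2:126552774-126553073 and holds 1 such hexamer, read as TGACCT. The Slc27a4 window lies on the plus strand at chr2:29802384-29802683 and holds 0.
Slc27a2: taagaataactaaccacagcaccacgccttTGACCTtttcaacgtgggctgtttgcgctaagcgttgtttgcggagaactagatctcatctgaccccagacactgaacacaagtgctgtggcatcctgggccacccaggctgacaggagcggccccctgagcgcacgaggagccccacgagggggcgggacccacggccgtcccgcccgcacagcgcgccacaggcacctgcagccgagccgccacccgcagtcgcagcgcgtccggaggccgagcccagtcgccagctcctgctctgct
Slc27a4: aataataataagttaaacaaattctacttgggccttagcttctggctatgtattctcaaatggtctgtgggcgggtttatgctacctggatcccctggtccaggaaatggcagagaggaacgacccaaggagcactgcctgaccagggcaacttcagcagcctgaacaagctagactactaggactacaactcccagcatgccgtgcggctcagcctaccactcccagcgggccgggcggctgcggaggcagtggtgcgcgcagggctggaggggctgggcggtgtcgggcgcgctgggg

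Such windows were found for 28 of the 32 genes, 30 windows in all. The hexamer AGGTCA was present on either strand in 6 of 30 (20%), those of Acadm, Acadvl, Cd36, Cpt1a, Echs1 and Slc27a2, against 16.3% of 32851 promoter windows of the same length. The direct repeat AGGTCANAGGTCA was in 0 of 30 (0.0396% of all windows), and the looser AGGNCANAGGNCA, which contains the former, was in 0 of 30 (0.381%). These searches say only which letters stand in these windows.

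Cd36, the scavenger receptor that takes up long-chain fatty acids in adipocytes, macrophages, capillaries and some epithelia, ran against the rest of the uptake group. It read 4.10, 4.09 and 3.83 in wild type control, 4.13, 4.70 and 4.46 in wild type quercetin, 4.86, 4.31 and 4.06 in POR-null control, and 4.36, 3.83 and 4.02 in POR-null quercetin. Apart from 4.70 and 4.86, all values lay below 4.66, the lowest of the arrays' lower quartiles. Wild type quercetin was higher than wild type control without overlap, by 0.42 (SE 0.20, adjusted p = 0.957; 0.33 without wild type control arrays 2 and 3), and quercetin minus control in POR-null was -0.34 (SE 0.20, adjusted p = 1). With the smooth muscle and myeloid list means as covariates the wild type difference was -0.02. The adipocyte list (7 genes) stood at 5.27, 5.56 and 5.27 in wild type control, 5.35, 6.53 and 6.22 in wild type quercetin, 6.84, 6.53 and 5.15 in POR-null control, and 5.82, 5.83 and 5.12 in POR-null quercetin. Of its genes Lep lay below the lower quartile in all 12 arrays, and the part of fat cell RNA in Cd36 was not tested.

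Acsl5, an acyl-CoA synthetase of the intestinal epithelium, was highest in wild type control array 1 at 9.35 and lay between 8.55 and 9.06 in the other 11 arrays. In the carnitine shuttle, Cpt1a encodes the outer membrane carnitine palmitoyltransferase, the rate-limiting step of long-chain oxidation. It read 9.46, 10.12 and 9.86 in wild type control, 10.03, 9.34 and 9.59 in wild type quercetin, 9.52, 9.49 and 9.61 in POR-null control, and 9.52, 9.48 and 9.57 in POR-null quercetin. The 6 POR-null arrays lay within 9.48 to 9.61, while the 6 wild type arrays spread from 9.34 to 10.12 on both diets. Its differences were -0.16 for quercetin in wild type (SE 0.17, adjusted p = 0.970), -0.02 for quercetin in POR-null (adjusted p = 1), -0.27 for genotype on control diet (adjusted p = 0.782) and -0.13 on quercetin (adjusted p = 0.998). Cpt2, the inner membrane partner, read 9.20, 9.75 and 9.69 in wild type control and 9.19 to 9.59 elsewhere. Slc25a20, the carnitine-acylcarnitine carrier, spanned 9.62 to 10.16, and Crat, carnitine acetyltransferase, 6.24 to 6.79, with overlapping groups.

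The 5 acyl-CoA dehydrogenases open each round of oxidation and differ in the chain they accept. Acadvl, for very long chains, read 9.54, 10.03 and 9.81 in wild type control, 9.58, 9.46 and 9.69 in wild type quercetin, 9.51, 9.53 and 9.49 in POR-null control, and 9.39, 9.50 and 9.29 in POR-null quercetin. Wild type control lay above POR-null control without overlap, by little in its lowest array, and the genotype difference was -0.28 on control diet (SE 0.12, adjusted p = 0.726) and -0.18 on quercetin (SE 0.12, adjusted p = 0.998). The former was -0.03 without wild type control arrays 2 and 3. Acadl, for long chains, spanned 9.47 to 10, Acadm, for medium chains, 9.61 to 9.95, and Acads, for short chains such as butyrate, 9.61 to 10.25. For Acadm the genotype difference on the control diet was -0.01 with an interval of -0.25 to 0.24. Acadsb, which handles branched short chains from isoleucine, read 5.78 to 6.06. The highest arrays of Acadm and Acads lay outside wild type control, at 9.95 and 10.25 in POR-null quercetin array 2.

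Electron transfer flavoprotein has an alpha subunit from Etfa and a beta subunit from Etfb, and Etfdh encodes the dehydrogenase that hands its electrons to ubiquinone. All 3 genes were lower in POR-null control than in wild type control, with a median difference of -0.29, and lower with quercetin in wild type, with a median of -0.20. Etfa read 9.54, 9.88 and 9.74 in wild type control, 9.49, 9.42 and 9.51 in wild type quercetin, 9.59, 9.38 and 9.32 in POR-null control, and 9.63, 9.63 and 9.36 in POR-null quercetin. Wild type quercetin lay below wild type control without overlap, though by little. The difference was -0.25 (SE 0.11, adjusted p = 0.957), and -0.07 without wild type control arrays 2 and 3. For genotype on the control diet it was -0.29 in Etfa (SE 0.11, adjusted p = 0.719) and -0.34 in Etfdh (SE 0.13, adjusted p = 0.718), and without wild type control arrays 2 and 3 these were -0.11 and -0.10. Without the same arrays Etfb turned to 0.17 for genotype, and with quercetin in wild type 2 of the 3 genes were higher, with a median of 0.04. Etfdh read 7.58, 8.04 and 7.84 in wild type control and 7.39 to 7.77 elsewhere, and Etfb 10.34, 10.92 and 10.69 against 10.30 to 10.61.

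The 7 genes from hydratase to thiolase were each lower in POR-null control than in wild type control, with a median difference of -0.21 and a range of -0.45 to -0.13, and none passed the test. Against wild type control array 1 alone 4 were lower and 3 higher, with a median of -0.02. Hadha and Hadhb encode the subunits of the mitochondrial trifunctional protein, which carries out the later steps on long chains. Hadha read 9.36, 9.91 and 9.71 in wild type control, 9.63, 9.25 and 9.48 in wild type quercetin, 9.45, 9.44 and 9.42 in POR-null control, and 9.43, 9.58 and 9.32 in POR-null quercetin. Hadhb read 10.05, 10.49 and 10.24, then 10.17, 9.90 and 10.10, then 10.04, 10.04 and 10, then 10.02, 10.03 and 9.92 in the same order of groups. Both were highest in wild type control array 2 and nearly flat over the 3 POR-null control arrays. The genes stand head to head: their 300-base windows share 228 bases. The Hadha window, which does not reach the start of Hadhb, is printed on the minus strand of chr5:30154931-30155230 as Hadha reads it, to show the shared stretch, with AGGTCA on neither strand.
Hadha: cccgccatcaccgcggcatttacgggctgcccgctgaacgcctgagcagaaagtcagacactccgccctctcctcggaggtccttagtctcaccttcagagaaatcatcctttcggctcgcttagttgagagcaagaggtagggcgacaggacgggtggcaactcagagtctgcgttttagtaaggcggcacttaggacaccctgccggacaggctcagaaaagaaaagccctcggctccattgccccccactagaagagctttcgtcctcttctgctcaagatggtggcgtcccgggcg

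Hadh, the short-chain hydroxyacyl-CoA dehydrogenase, read 11.80, 11.95 and 11.83 in wild type control and 11.59, 11.70 and 11.66 in POR-null control, a separation without overlap of -0.21 (SE 0.10, adjusted p = 0.734) that was -0.15 without wild type control arrays 2 and 3. On quercetin its arrays overlapped, at 11.70, 11.76 and 11.82 in wild type and 11.78, 11.85 and 11.51 in POR-null. Ehhadh, the peroxisomal bifunctional enzyme and a classical PPAR alpha target, read 5.98, 7.19 and 6.80 in wild type control, 6.27, 6.20 and 6.30 in wild type quercetin, 6.24, 6.04 and 6.33 in POR-null control, and 6.65, 6.86 and 6.20 in POR-null quercetin. Wild type control held both its lowest and its highest array. Echs1, the short-chain hydratase, spanned 8.83 to 9.19, Acaa2, a thiolase, 8.98 to 9.59, and Acat1, the thiolase that also serves ketone bodies, 8.51 to 9.02.

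The 4 auxiliary enzymes prepare unsaturated fatty acids for the spiral. Ech1 read 9.58, 10.29 and 10.01 in wild type control and 9.60 to 10.03 elsewhere, Eci1 7.62, 8.10 and 8.11 against 7.54 to 8.13, Eci2 6.83, 7.20 and 6.98 against 6.78 to 7.26, and Decr1 8.22, 8.39 and 8.21 against 8.06 to 8.41. All 4 had the lower mean in POR-null control than in wild type control, with a median difference of -0.14, yet only Decr1 did so without overlap. Against wild type control array 1 alone only 1 of the 4 was lower and 3 were higher, with a median of 0.14.

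Bdh1, the mitochondrial hydroxybutyrate dehydrogenase of ketone body metabolism, was the second gene in which all 3 wild type control arrays lay above the other 9. It read 9.26, 9.34 and 9.38 in wild type control, 9.12, 9.00 and 9.19 in wild type quercetin, 9.06, 9.00 and 8.74 in POR-null control, and 9.09, 9.13 and 8.79 in POR-null quercetin. Group means were 9.33 ± 0.06, 9.10 ± 0.10, 8.93 ± 0.17 and 9.00 ± 0.19 (SD, n = 3). The genotype difference on the control diet was -0.39 (SE 0.11, interval -0.64 to -0.15, limma adjusted p = 0.710) and -0.33 without wild type control arrays 2 and 3, and a second, dimmer probe set of Bdh1 gave 0.12. Averaged over both probe sets the difference was -0.14, so the value depends on the probe set. Acot2, a mitochondrial acyl-CoA thioesterase, spanned 5.10 to 5.50 with overlapping groups.

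Pdk4 and Angptl4 are PPAR alpha targets outside the spiral: Pdk4 encodes a kinase that shuts off pyruvate dehydrogenase when fat is burned, and Angptl4 a secreted inhibitor of lipoprotein lipase. Pdk4 read 6.43, 8.43 and 6.83 in wild type control, 6.17, 6.59 and 6.81 in wild type quercetin, 7.47, 6.80 and 6.21 in POR-null control, and 6.73, 7.21 and 6.48 in POR-null quercetin. Wild type control array 2 stood far above the rest, and no groups separated. The difference was -0.71 for quercetin in wild type (SE 0.43, interval -1.64 to 0.23), -0.02 in POR-null (interval -0.96 to 0.92), -0.40 for genotype on control diet (adjusted p = 0.893) and 0.28 on quercetin (adjusted p = 0.998). Without wild type control array 2 the first became -0.11 and the genotype difference 0.20. Angptl4 read 6.87, 7.54 and 7.40 in wild type control, 6.53, 7.07 and 7.02 in wild type quercetin, 7.01, 7.14 and 6.86 in POR-null control, and 6.81, 6.88 and 6.84 in POR-null quercetin. Its differences were -0.40 for quercetin in wild type (SE 0.17, adjusted p = 0.957), -0.16 in POR-null (SE 0.17, adjusted p = 1), -0.27 for genotype on control diet (adjusted p = 0.787) and -0.03 on quercetin (adjusted p = 0.998). Without wild type control arrays 2 and 3 the first of these was 0.00.

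**Figure D3:**
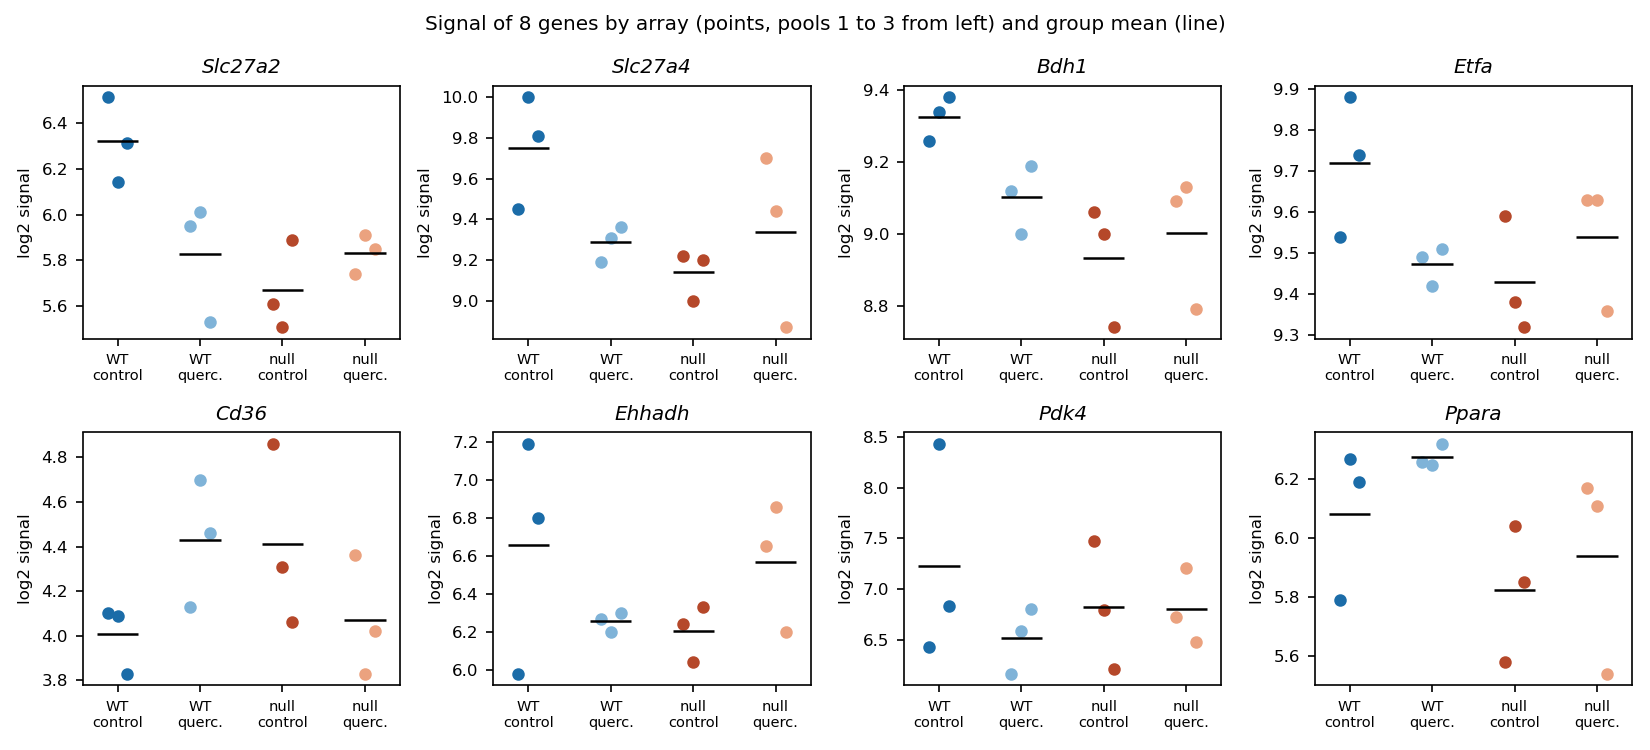
Log2 signal of 8 genes in each of the 12 arrays by group, one point per array with the group mean as a line, each panel on its own scale. In the panels of Slc27a2 and Bdh1 the 3 wild type control arrays lie above the other 9, and in those of Pdk4 and Ehhadh wild type control array 2 lies at the top.

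For quercetin against control diet in wild type mice, 29 of the 32 genes had the lower mean with quercetin and 3 the higher, namely Cd36 (0.42), Ppara (0.19, SE 0.18, adjusted p = 0.965) and Eci2 (0.15). The median difference was -0.10, against 0.00 over all named genes, with a range of -0.71 to 0.42. Such a lean was not particular to these genes: 12 of 14 colonocyte markers (median -0.06) and 10 of 11 acinar genes (median -1.06) were lower. Of 7 goblet cell genes 3 were lower and 4 higher, and all 13 smooth muscle and all 11 fibroblast genes were higher. In limma 0 of the 32 had an adjusted p under 0.05 (0% of all 22626 probe sets), the smallest being 0.948. At an unadjusted p under 0.05 there were 4, Slc27a2, Slc27a4, Angptl4 and Etfa, all lower, where 1.94% of all probe sets were lower by that rule. The groups did not overlap in 4 genes that were lower (12.5% of the 32, all probe sets 3.66%), Slc27a2, Slc27a4, Bdh1 and Etfa, and in 1 that was higher, Cd36 (all probe sets 5.65%). The count of 29 depended on which wild type control arrays were kept. Without arrays 2 and 3 of that group 11 were lower and 20 higher, with a median of 0.05. Without array 2 alone 21 were lower, and without array 1 alone 27 were (median -0.21). Leaving out the 3 arrays of the highest acinar mean, which keeps only array 3 of the group, gave 25 lower and 7 higher (median -0.14). With the smooth muscle and myeloid means as covariates 21 were lower, with a median of -0.03. In the small intestine list 10 of 11 genes were lower in this comparison too (median -0.52). Leaving out wild type control arrays 2 and 3 keeps array 1, in which this list was highest of the 12 arrays (8.85). The list was then lower in 8 of 11 genes (median -1.02), and the median of the 32 was 0.05. The kept array fixes that outcome for the list, so the 2 medians cannot be weighed against each other. The part of the list in the oxidation genes was not tested.

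In POR-null mice the same comparison had 20 genes higher with quercetin and 12 lower, and a median of 0.05, against 0.01 over all named genes. In limma 0 of 32 passed at an adjusted p of 0.05 (0% of all probe sets), 0 at an unadjusted p of 0.05 (2.82%) and 0 had groups without overlap (6.75%). The 5 genes of the smallest p were Cd36 (-0.34), Ehhadh (0.37, SE 0.24), Acot2 (0.16, SE 0.11), Acsl5 (0.18, SE 0.15) and Slc27a2 (0.16, SE 0.15), each with an adjusted p of 1. For Ppara the difference was 0.12 (SE 0.18). Without POR-null quercetin array 2, the acinar-high array of that group, 14 genes were higher and 18 lower (median -0.01), and with the covariates 21 were lower (median -0.06).

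For POR-null against wild type on the control diet, 29 of the 32 genes had the lower mean in POR-null, with a median of -0.20 against -0.01 over all named genes and a range of -0.65 to 0.40, the latter in Cd36. This comparison shares its wild type control arrays with that of quercetin in wild type. In limma 0 passed at an adjusted p of 0.05 (0% of all probe sets), the smallest being 0.710. With array weights 2 of the 32 passed, Slc27a2 and Slc27a4. At an unadjusted p under 0.05 there were 7, all lower: Slc27a2, Bdh1, Slc27a4, Etfdh, Etfa, Acadvl and Hadh, where 3.11% of all probe sets were lower by that rule. In 9 genes (28.1%) POR-null control lay wholly below wild type control, against 4.86% of all probe sets, the 9 being Slc27a2, Bdh1, Slc27a4, Acadvl, Hadh, Hadhb, Decr1, Acadsb and Acat1. The count of 29 too depended on which wild type control arrays were kept. Without arrays 2 and 3 of that group 14 were lower and 18 higher (median 0.07). Without array 2 alone 23 were lower (median -0.11), and without array 1 alone 31 were (median -0.32). Leaving out the 3 arrays of the highest acinar mean, which keeps only array 3 of the group, gave 29 lower and 3 higher (median -0.18). Without POR-null control array 1 there were 30 lower (median -0.18). With the covariates 24 were lower, with a median of -0.07. All 11 genes of the small intestine list were lower here as well (median -0.65). Against wild type control array 1 alone, in which this list was highest (8.85), it was lower in 10 of 11 genes (median -0.99). The median of the 32 was then 0.07. Here too the kept array fixes the outcome for the list. The part of the list in the oxidation genes was not tested. With the replicate number as a block in a fit of these 6 arrays 0 of the 32 passed, the smallest adjusted p in limma being 0.143, although 47 of all probe sets did.

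On the quercetin diet 19 of 32 genes were lower in POR-null and 13 higher, with a median of -0.04 against 0.00 over all named genes. In limma 0 passed at an adjusted p of 0.05 (0% of all probe sets), 0 at an unadjusted p of 0.05 (2.39%), and 1 gene, Ppara, had no overlap between the groups (6.82%). After Ppara the smallest p values were those of Cd36 (-0.36, SE 0.20), Acadvl, Acot2 (0.17, SE 0.11) and Eci2 (-0.17, SE 0.12), each with an adjusted p of 0.998. Single arrays turned the count: without POR-null quercetin array 3 there were 13 lower and 19 higher (median 0.04), and without array 2 there were 26 lower (median -0.08). With the covariates 24 were lower, with a median of -0.11. Without wild type quercetin array 1 there were 16 on each side.

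**Figure D4:**
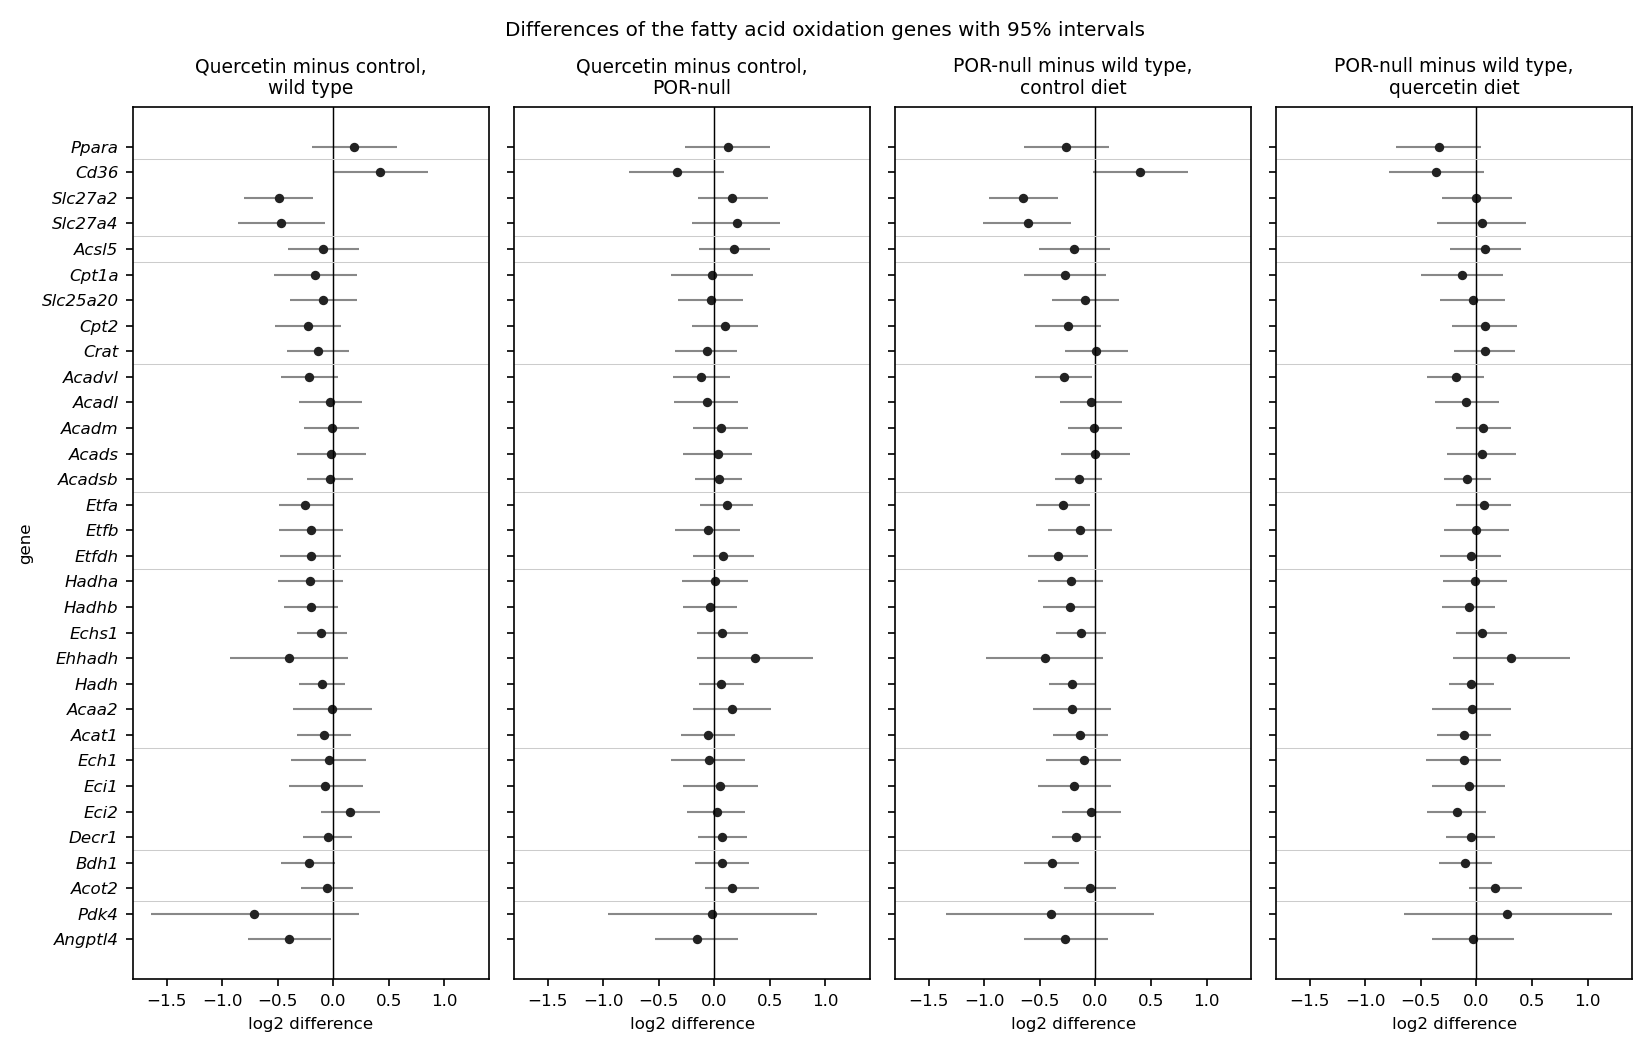
Difference in log2 signal of each of the 32 genes in the 4 comparisons of diet or genotype, with the 95% interval of the moderated fit, unadjusted for the number of genes. In the panels of quercetin in wild type and of genotype on control diet 29 of 32 points lie below 0, and Slc27a2 lies at -0.49 and -0.65.

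Whether quercetin acted differently in the genotypes was tested by the interaction, the quercetin difference in POR-null minus that in wild type. It was above 0 in 27 of 32 genes, with a median of 0.15 against 0.00 over all named genes, and 0 passed at an adjusted p of 0.05 in limma (0% of all probe sets). At an unadjusted p under 0.05 there were 5, of which 4 were above 0 (1.83% of all probe sets). These were Slc27a2 (0.65, SE 0.21, interval 0.21 to 1.10), Slc27a4 (0.66, SE 0.26), Etfa (0.36, SE 0.16) and Ehhadh (0.77, SE 0.34) above 0, and Cd36 (-0.76, SE 0.28) below (2.92% of all probe sets), all at an adjusted p of 0.998. Without wild type control arrays 2 and 3 the count above 0 was 12 of 32. Slc27a2 then stood at 0.84, Slc27a4 at 0.36, Etfa at 0.18, Ehhadh at 0.09 and Cd36 at -0.67. Without the 3 arrays of the highest acinar mean the count was 25. With the covariates Slc27a4 was 0.38, Cd36 -0.22 and Ehhadh 0.11, while Slc27a2 stood between 0.50 and 0.84 under the alternatives that held its probe set, which leaves out the filter on dim probe sets.

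Beyond these genes, 84 further genes of peroxisomal oxidation, lipid binding, ketone bodies and PPAR signalling were listed, and 69 were named. In each of the 5 comparisons 0 of the 69 passed at an adjusted p of 0.05. With quercetin in wild type 46 were lower and 23 higher (median -0.05), and 3 had an unadjusted p under 0.05 (5.15% of all probe sets). These were Amacr, a racemase of branched fatty acids (-0.39, SE 0.13), Pparg, the related receptor PPAR gamma (-0.31, SE 0.13), and Fabp4, the adipocyte fatty acid binding protein (1.93, SE 0.72). Next came Crot, the peroxisomal carnitine octanoyltransferase (-0.41, SE 0.19), and Plin2, the lipid droplet coat protein (-0.26, SE 0.13). With quercetin in POR-null 41 were higher and 27 lower (median 0.02), led by Acad9 (-0.24, SE 0.11). Without wild type control arrays 2 and 3 the wild type comparison had 26 lower and 43 higher (median 0.07), with Amacr at -0.30, Fabp4 at 1.64, Crot at -0.05, Pparg at 0.02 and Plin2 at 0.01.

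For genotype on the control diet 46 of the 69 were lower and 22 higher (median -0.09), with 7 at an unadjusted p under 0.05 (6.79% of all probe sets). Fabp4 was higher by 2.10 (SE 0.72), Hsd17b4, the peroxisomal multifunctional enzyme, lower by a difference of -0.34 (SE 0.12), Oxct1, which activates ketone bodies for oxidation, higher by 0.51 (SE 0.19), and Crot (-0.50, SE 0.19) and Amacr (-0.31, SE 0.13) lower. With wild type control arrays 2 and 3 left out there were 32 lower and 37 higher (median 0.04), with Fabp4 at 1.80, Amacr at -0.22, Crot at -0.15, Hsd17b4 at -0.06 and Oxct1 at -0.02. On quercetin 34 were lower and 34 higher. Fabp4 read 4.58, 4.74 and 3.53 in wild type control, 5.38, 6.78 and 6.49 in wild type quercetin, 7.57, 7.38 and 4.19 in POR-null control, and 6.27, 5.75 and 4.98 in POR-null quercetin. Fabp4 is one of the 7 genes of the adipocyte list, and 2 others moved with it by group mean, Adipoq (4.02, 5.42, 5.89 and 4.51 in the same order) and Car3 (5.75, 7.44, 7.54 and 6.12). The other 4 did not: Retn had 6.75, 6.74, 6.80 and 6.71, Lpl 7.14, 7.01, 7.14 and 6.71, and Cidec 5.69, 5.46, 5.59 and 5.40, while Lep lay below the lower quartile throughout. Over the list 4 of 7 were higher with quercetin in wild type (median 0.02). The part of fat cell RNA in the Fabp4 values was not tested. Oxct1 read 9.57, 8.66 and 8.89 in wild type control, 9.23, 9.34 and 9.22 in wild type quercetin, 9.80, 9.57 and 9.28 in POR-null control, and 9.55, 9.56 and 9.53 in POR-null quercetin. It was lowest in wild type control arrays 2 and 3, the arrays with the highest means over the 32 oxidation genes (8.71 and 8.52).

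For 13 of the 32 genes several probe sets were present, and all of a gene's probe sets had the same sign in 11 of 13 for quercetin in wild type and in 8 of 13 for genotype on the control diet. Of the genes named above, Bdh1 (-0.39 and 0.12) was one whose sign differed in the latter comparison, and the second probe set of Hadh gave -0.26 beside -0.21. For Cpt1a the other probe sets gave -0.19 and -0.14 beside -0.27. The size varied more in Acaa2, at -0.31 and -0.63 beside -0.21, and in Hadhb, at -0.02 beside -0.23.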

How the data were processed

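Values were those of the table the authors deposited, taken to be log2 signal from their range. MAS5 and RMA are named in the submitters' processing notes, without a role, and no normalization was repeated. Of 22690 probe sets, 64 Affymetrix controls were left out and 22626 tested, with no filter on signal. The supplied array annotation gave 1 gene symbol to 20380, several to 691 and none to 1555.

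One limma 3.58.1 model (R 4.3.3; lmFit, eBayes, trend=TRUE) over all 12 arrays held 4 group means and 5 contrasts, with 8 residual and 4.91 prior degrees of freedom. P values are two-sided, with Benjamini-Hochberg adjustment over all 22626 probe sets at 0.05. Differences are treated or POR-null minus control or wild type in log2 units, SE is that of the moderated fit, and arrays limit precision by their number. Values of the deleted gene are not reported here.

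The genes, lists and tests were chosen with earlier results of these data known. Every gene on the list is named with its level. Differences are given for the 5 of the smallest unadjusted p in each contrast, and for Ppara, Cpt1a, Pdk4 and Angptl4 in each contrast of 2 groups. Genes given for other reasons, such as the pattern over 9 other arrays, were chosen after their values were seen. The labels tie replicate numbers to no litter or day. Deviations of same-numbered arrays correlated above 0.1 in all 3 pairs between the control-diet groups (0.19, 0.11 and 0.26), so that comparison is also given with the number as a block, and in 3 of the 15 other pairs. The fits were tested on simulated data. Alternatives were array weights, other scaling, filters, covariates, probe set means, a replicate block, leaving out arrays and, chosen after seeing the data, leaving out wild type control arrays 2 and 3.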

Additional observations from a re-analysis of the deposited data

How the results depend on the processing

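The number of the 32 genes past the threshold stayed at 0 in every comparison and alternative run, except with array weights for genotype on the control diet, where it was 2 and 399 of all probe sets passed. The weights ran from 0.45 to 2.72, and were 0.53, 1.14 and 2.49 in wild type control arrays 1 to 3. In POR-null control arrays 1 to 3 they were 0.61, 2.72 and 0.45. That comparison thus leaned most on wild type control array 3 and POR-null control array 2. A fit with the replicate number as a block called 0 in each of the 5 contrasts (Slc27a2 for genotype on the control diet -0.65, adjusted p = 0.646), and so did the block in the 6 control-diet arrays alone, chosen after seeing the data (Slc27a2 adjusted p = 0.143). The block changed no call among the 32 genes. Leaving out 1 array moved the median difference over the 32 genes between -0.21 and -0.06 for quercetin in wild type, between -0.01 and 0.10 for quercetin in POR-null, between -0.32 and -0.11 for genotype on the control diet and between -0.08 and 0.04 for genotype on quercetin. Without wild type control arrays 2 and 3 the medians were 0.05, 0.07 and, for the interaction, -0.06. Without the 3 arrays of the highest acinar mean, which keeps only wild type control array 3, these medians were -0.14, -0.18 and 0.12. With the covariates they were -0.06 for quercetin in POR-null, -0.07 for genotype on the control diet and -0.03 for the interaction. Signs turned with the covariates for Cd36 (-0.02) and Cpt1a (0.22) under quercetin in wild type, Ppara (-0.13) under quercetin in POR-null and Cpt1a (0.03) for genotype on the control diet. They turned without wild type control arrays 2 and 3 for Angptl4 (0.00), Cpt1a (0.19) and Pdk4 (0.09) under quercetin in wild type, and for Ppara (0.03), Cpt1a (0.08), Pdk4 (0.40) and Angptl4 (0.13) for genotype on the control diet. For quercetin in POR-null, Cpt1a was 0.01 with array weights and with quantile scaling, and 0.00 without the 3 arrays of the highest acinar mean. With 1 array left out, quercetin in POR-null gave 0.00 to 0.32 for Ppara, -0.04 to 0.02 for Cpt1a and -0.33 to 0.30 for Pdk4. Genotype on the control diet gave -0.80 to 0.20 for Pdk4, and on quercetin -0.29 to 0.06 for Cpt1a and -0.20 to 0.07 for Angptl4. The cause of these changes was not tested. The -0.71 of Pdk4 for quercetin in wild type had a limma p of 0.127 before adjustment, with an interval of -1.64 to 0.23. It rested largely on wild type control array 2, at 8.43. It therefore does not show what size of difference 3 pools a group can detect.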

Other observations

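Among the further genes of the pathway, 2 were singled out after their values were seen. Vnn1, the pantetheinase vanin 1 and a known PPAR alpha target, read 6.14, 7.59 and 7.39 on the log2 scale in wild type control and 6.12, 6.37 and 6.71 in wild type quercetin. It read 5.72, 6.24 and 6.85 in POR-null control and 6.38, 6.63 and 5.91 in POR-null quercetin. Its 2 highest arrays were wild type control arrays 2 and 3, as for the mean of the 32 oxidation genes. Fabp1, the liver-type fatty acid binding protein, read 9.36, 7.53 and 7.67 in wild type control and 4.59, 8.01 and 7.40 in wild type quercetin. It read 7.59, 7.38 and 5.06 in POR-null control and 7.01, 8.16 and 7.35 in POR-null quercetin. Array 1 of wild type control held its highest value and array 1 of wild type quercetin its lowest. The small intestine list (11 genes), to which Fabp1 does not belong, was highest and lowest in the same 2 arrays, at 8.85 and 6.98, and its part in the Fabp1 values was not tested.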
